A study of Mus musculus with 2 samples.

Results

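The 9 genes of the CHD family, Chd1 to Chd9, were examined in DNase-seq maps of mouse hippocampus, out of 21884 protein-coding genes with a unique symbol on chromosomes 1 to 19, X and Y. The members were taken by name. For each, the GENCODE M21 gene model on the mm10 assembly plus 20 kb on either side was searched for DNase peaks, which are short stretches where chromatin is open to cutting by DNase I. Both libraries (replicates 1 and 2) form a single group: tissue labelled layer of hippocampus, from female B6CASTF1/J mice at 14 days of age. These are hybrids of a C57BL/6J and a CAST/EiJ parent, and no treatment is named. The label of each library names 3 females, and both labels carry 1 donor identifier. The sources used here do not say if the replicates are separate animals or pools, and their spread may therefore be technical. With 1 group there is no condition to compare and no test was made. The labels do not say which layer was taken. Each value is an average over the cell types present in that tissue.

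CHD proteins are ATP-driven chromatin remodellers that carry paired chromodomains in front of a SNF2-type motor and that slide, space or evict nucleosomes. Subfamily I holds Chd1 and Chd2, which act with transcribing RNA polymerase. Subfamily II holds Chd3, Chd4 and Chd5, the alternative motors of the NuRD complex, which joins remodelling to histone deacetylation. Subfamily III holds Chd6 to Chd9, the largest proteins of the family. In the brain, several members are dosage sensitive: in humans, loss of 1 copy of CHD2 is a known cause of epilepsy, of CHD7 a cause of CHARGE syndrome, and of CHD8 a cause of autism.

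The open sites that carry the main observations are shown here with the reference sequence of C57BL/6J, on the strand of the gene and from 5′ to 3′. These hybrid animals also carry a CAST/EiJ allele, which is not shown. Capitals mark bases under footprints of both libraries, which are short stretches protected from cutting inside open chromatin. The strongest promoter peaks of 3 members come first: those of Chd2 and Chd6, which rank highest in the family, and that of Chd3, which like that of Chd2 lies inside its gene. They are Chd2 (chr7:73537761-73538012, mm10, minus strand), Chd6 (the part upstream of the gene, chr2:161109087-161109260, minus strand) and Chd3 (chr11:69365041-69365240, minus strand). The weakest promoter, that of Chd5, follows (upstream part, chr4:152338481-152338645, plus strand). A strong distal peak found in both libraries lies in an intron of Chd3 (chr11:69366461-69366640, minus strand). Chd9 is shown by 30 bases around a CTCF word (chr8:90828795-90828824, plus strand).
Chd2 promoter: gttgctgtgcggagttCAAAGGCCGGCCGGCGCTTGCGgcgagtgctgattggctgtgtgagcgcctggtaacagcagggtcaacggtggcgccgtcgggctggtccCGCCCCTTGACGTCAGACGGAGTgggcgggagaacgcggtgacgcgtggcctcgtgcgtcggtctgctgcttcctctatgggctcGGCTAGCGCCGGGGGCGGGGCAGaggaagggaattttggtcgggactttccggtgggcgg
Chd6 promoter: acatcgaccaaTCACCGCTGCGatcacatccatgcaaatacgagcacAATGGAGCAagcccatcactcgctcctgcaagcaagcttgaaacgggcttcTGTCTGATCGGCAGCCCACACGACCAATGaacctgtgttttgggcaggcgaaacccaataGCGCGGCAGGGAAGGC
Chd3 promoter: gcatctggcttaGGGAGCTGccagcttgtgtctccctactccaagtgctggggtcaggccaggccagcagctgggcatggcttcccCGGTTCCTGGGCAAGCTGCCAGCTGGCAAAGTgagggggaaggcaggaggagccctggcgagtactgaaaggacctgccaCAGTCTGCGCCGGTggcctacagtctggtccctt
Chd5 promoter: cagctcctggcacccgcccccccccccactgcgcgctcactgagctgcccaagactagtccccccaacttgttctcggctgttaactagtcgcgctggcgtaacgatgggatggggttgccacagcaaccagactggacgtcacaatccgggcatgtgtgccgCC
Chd3 distal: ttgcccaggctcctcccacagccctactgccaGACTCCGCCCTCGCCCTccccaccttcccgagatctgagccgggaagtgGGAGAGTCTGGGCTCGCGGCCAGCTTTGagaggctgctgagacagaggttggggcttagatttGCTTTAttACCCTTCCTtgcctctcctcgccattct
Chd9 CTCF word: ATCTTACGGCCACTAGGTGGTGCCTGCGCT

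Each library has a longer and a shorter deposited peak list, and the longer one, of 115699 peaks in replicate 1 and 167829 in replicate 2, was used. A promoter peak lies within 500 bp of an annotated transcript start (29514 and 30572 peaks) and a distal peak lies over 1 kb from every start (79446 and 128645 peaks). Strength is the authors' signal value, whose scaling is not stated, so the depth in reads is unknown and a peak is ranked by its percentile among the promoter or distal peaks of its own library. At promoter peaks found in both libraries the signal of replicate 1 was a median of 2.32 times that of replicate 2 (23154 peaks), and at distal peaks 1.38 times (54709 peaks). The tissue label was checked on marker genes: 9 of 9 markers of hippocampal neurons and 4 of 4 of astrocytes had an open promoter in each library, and so did 4 of 5 of the oligodendrocyte lineage, 2 of 6 of interneurons, 2 of 4 of microglia, 1 of 3 of vessels and 1 of 2 of ependyma and choroid plexus.

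All 9 Chd genes showed an open promoter in each library, against 67.2% of all protein-coding genes in replicate 1, 64.9% in replicate 2 and 63.2% in both. With the shorter lists it was again 9 of 9, against 58.6%. The members are long genes with many annotated starts, 4 to 17 each against a median of 3, and among genes with 4 or more distinct starts 86.9% had such peaks in both libraries. With the annotated 5′ end alone, 8 of 9 members had a peak in both, against 57.3% of all genes. The strongest promoter peak of Chd2, Chd6, Chd8 and Chd9 lay in the top 10% of promoter peaks in both libraries, which makes 4 of 9 members against 11.8% of all genes. That share is 2573 of all 21884 genes, of which only 13836 had a promoter peak in both libraries. Taking the mean of both libraries, the members' median percentile was 89.3, against 77.2 for all genes that had a promoter peak in each library. Both comparisons take the strongest peak over all starts of a gene and were not matched for the number of starts. The members were spread widely, with mean percentiles between 52.0 at Chd5 and 99.9 at Chd2.

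**Figure D1:**
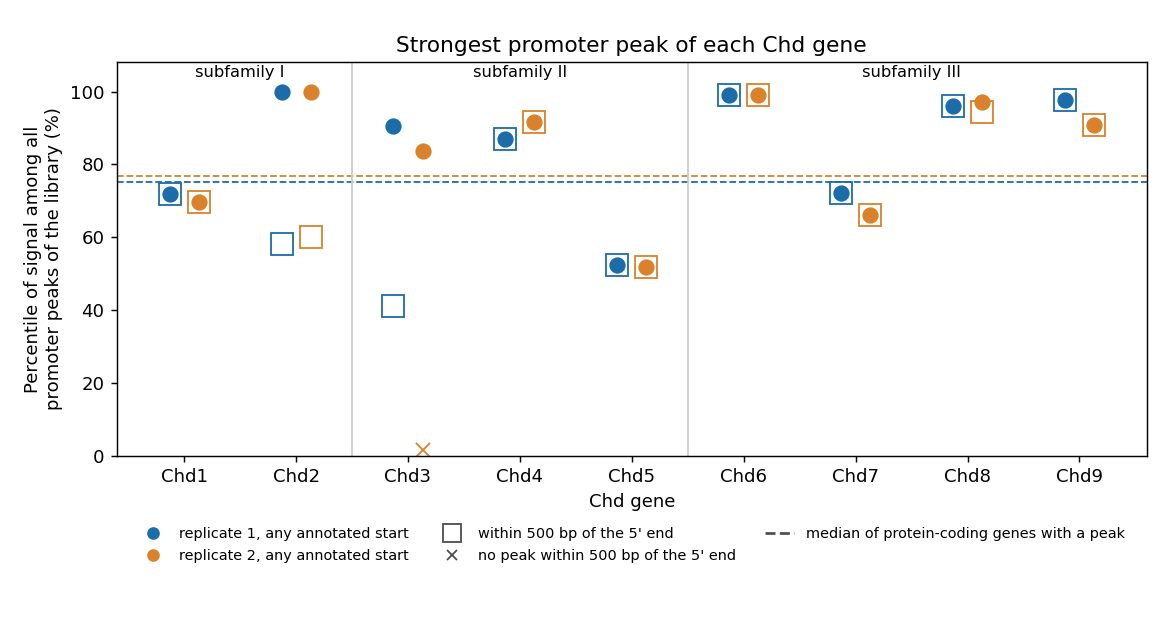
Percentile of the strongest promoter peak of each Chd gene among all promoter peaks of its library (y axis, %), with replicate 1 in blue and replicate 2 in orange. Filled circles take any annotated start, open squares only the 5′ end, a cross marks no peak there, and dashed lines give the median of the genes with a peak, 75.1 in replicate 1 and 76.8 in replicate 2; Chd2 and Chd3 are the genes whose squares fall far below their circles.

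In subfamily I, the strongest promoter of the family and one of the weaker ones stand side by side. Chd2 (chr7:73426638-73541830, minus strand), a remodeller that deposits the histone variant H3.3 at transcribed genes, had the strongest, with 28.1 signal units in replicate 1 and 12.6 in replicate 2, both at percentile 99.9. This peak, chr7:73537761-73538040, did not lie at the 5′ end. It was centred 3930 bp inside the gene, in an intron, 140 bp before the start of a shorter protein-coding transcript at 73537621. A start of the antisense RNA Gm44686 also lies within 500 bp of it, and the signal of the 2 genes cannot be told apart there. At the annotated 5′ end of Chd2 the peak had 2.62 signal units in replicate 1 and 1.21 in replicate 2 (percentiles 58.2 and 60.0), so the internal site was the stronger one in both libraries. RefSeq annotates a single Chd2 start, at 73541746, and its distance to the internal peak is 3706 bp, so that the peak counts as a promoter of Chd2 by the GENCODE models only.

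The Chd2 5′ end lies within the long noncoding RNA 1810026B05Rik, also known as Chaserr, which is transcribed on the same strand from further upstream and which restrains Chd2 expression in mice. The promoter of this RNA had 20.99 signal units in replicate 1 and 9.10 in replicate 2 (percentiles 99.3 and 99.2). Of the 3 open sites, the one at the annotated Chd2 5′ end was therefore the weakest in both libraries.

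Chd1 (chr17:15704967-15772610, plus strand), which binds methylated histone H3 at active genes, had 4.83 signal units in replicate 1 and 1.83 in replicate 2 (percentiles 71.8 and 69.6). Its peak was broad, 400 bp in replicate 1 and 620 bp in replicate 2, against a median width of 240 bp for the strongest promoter peaks of all genes in both libraries. A weaker peak at 15705301 to 15705900 had 1.56 and 0.479. No stronger site was found at another annotated Chd1 start.

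In subfamily II, the NuRD motors, Chd4 and Chd5 had their strongest promoter peak at the 5′ end and Chd3 inside the gene. Chd4 (chr6:125095981-125130591, plus strand), a broadly expressed motor, had 9.40 signal units in replicate 1 and 5.04 in replicate 2 (percentiles 87.0 and 91.6). A further site, centred 1029 bp into the gene, had 1.92 and 0.906. It covers the start of another protein-coding Chd4 transcript, at 125096569, and a start of the microRNA gene Mir7045 lies within 500 bp of it.

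Chd3 (chr11:69343273-69369406, minus strand), the motor that in the mouse cortex helps to place late-born neurons in their layers, had its strongest promoter peak at chr11:69364981-69365240, centred 4296 bp inside the gene and 202 bp before the start of a shorter protein-coding transcript. The signal there was 11.1 in replicate 1 and 3.47 in replicate 2 (percentiles 90.6 and 83.8). At the 5′ end only replicate 1 had a peak, with 1.44 signal units (percentile 41.1). The strongest Chd3 peak was poor in CpG: the observed over expected CpG ratio in its central 200 bp was 0.197, lower than in all but 2.38% of 13836 strongest promoter peaks, whose median was 0.847. RefSeq has no start within 500 bp of this peak, and its nearest is 1220 bp away.

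Chd5 (chr4:152338651-152390194, plus strand), a NuRD motor found mainly in neurons and a tumour suppressor in mice, had the weakest promoter of the family. Its signal was 2.08 in replicate 1 and 0.888 in replicate 2 (percentiles 52.3 and 51.7). Both percentiles lay below the median of all genes that had such a peak, as did those of Chd1 and Chd7. Its peak sat in CpG-rich sequence, with an observed over expected ratio of 1.00 (percentile 78.2 among the same 13836 peaks). Further peaks downstream of the start, at 152338781 to 152339563 and 152341093 to 152341144, were found in replicate 1 only, with signals of 1.16 and 0.821.

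In subfamily III, the peak at the 5′ end was strong in Chd6, Chd8 and Chd9 and moderate in Chd7. Chd6 (chr2:160946978-161109075, minus strand), linked to the response to oxidative DNA damage, had 20.3 signal units in replicate 1 and 8.91 in replicate 2, both at percentile 99.1. A start of the antisense RNA Gm45447 lies within 500 bp of the same peak, and the signal of the 2 genes cannot be told apart there. Its central 200 bp were less rich in CpG than most, with a ratio of 0.665 (percentile 23.3). The ratios of Chd8 (0.640, percentile 20.9) and Chd9 (0.649, percentile 21.8) were slightly lower.

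Chd7 (chr4:8690406-8867659, plus strand), the CHARGE syndrome gene and a remodeller needed for adult neurogenesis in the mouse hippocampus, had 4.90 signal units in replicate 1 and 1.57 in replicate 2 (percentiles 72.1 and 66.2). Its open stretch was long: further promoter peaks at 8690961 to 8691260 had 2.35 and 0.836, and at 8691401 to 8692340 they had 1.61 and 0.542. The sequence at its strongest peak was the richest in G and C among the members, at 81.5% (percentile 98.7), with a CpG ratio of 1.20 (percentile 97.4).

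Chd8 (chr14:52198151-52257780, minus strand), which binds β-catenin and is an autism gene in humans, had open chromatin of about the same strength at a pair of places. The 5′ end peak had 14.8 signal units in replicate 1 and 5.93 in replicate 2 (percentiles 95.9 and 94.5). The peak at an internal start, 13220 bp into the gene (chr14:52244441-52244680), had 12.3 and 7.09 (percentiles 92.9 and 97.1). The 5′ end was the stronger in replicate 1 and the internal start in replicate 2, so no order between them held in both. RefSeq places the start of a predicted transcript inside the internal peak.

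Chd9 (chr8:90828352-91054516, plus strand), first described in mouse bone marrow stroma, had its strongest peak at chr8:90828701-90828920, in a noncoding exon and centred 458 bp from the 5′ end. That distance is from the GENCODE 5′ end, and RefSeq places the start of a curated transcript inside the peak, at 90828835. The signal was 17.0 in replicate 1 and 4.82 in replicate 2 (percentiles 97.8 and 90.8). Internal starts were open too. The peak at 90908121 to 90908560, shared with the gene model Gm6658, had 7.55 and 2.96 (percentiles 81.7 and 80.3), and the one at 90954841 to 90955560, about 126848 bp into the gene, had 2.61 and 1.77.

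In the order of their mean percentile over both libraries the members were Chd2 (99.9), Chd6 (99.1), Chd8 (96.5), Chd9 (94.3), Chd4 (89.3), Chd3 (87.2), Chd1 (70.7), Chd7 (69.1) and Chd5 (52.0). The ranges of both libraries overlapped between Chd8 and Chd9, Chd9 and Chd4, Chd4 and Chd3, and Chd1 and Chd7, so those neighbours did not differ beyond their spread. The ranges were separate between Chd2 and Chd6, Chd6 and Chd8, Chd3 and Chd1, and Chd7 and Chd5. The order rests on 2 libraries. The place of Chd3 rests on the window: at 250 bp from a start its mean percentile was 57.6, below Chd1 (65.1) and Chd7 (63.3). The internal Chd3 peak begins at 69365041 in replicate 1, outside that window, and at 69364981 in replicate 2, inside it. That mean therefore joins the 5′ end peak of replicate 1 with the internal peak of replicate 2. The strongest promoter peak lay over 500 bp from the 5′ end in both libraries in 2 members, Chd2 and Chd3, against 13.2% of 13836 genes. Promoter peaks at starts over 2 kb apart were found in both libraries in 3 members, Chd2, Chd8 and Chd9, against 12.7% of the same genes. These last 2 measures were chosen after the members' peaks had been seen.

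**Figure D2:**
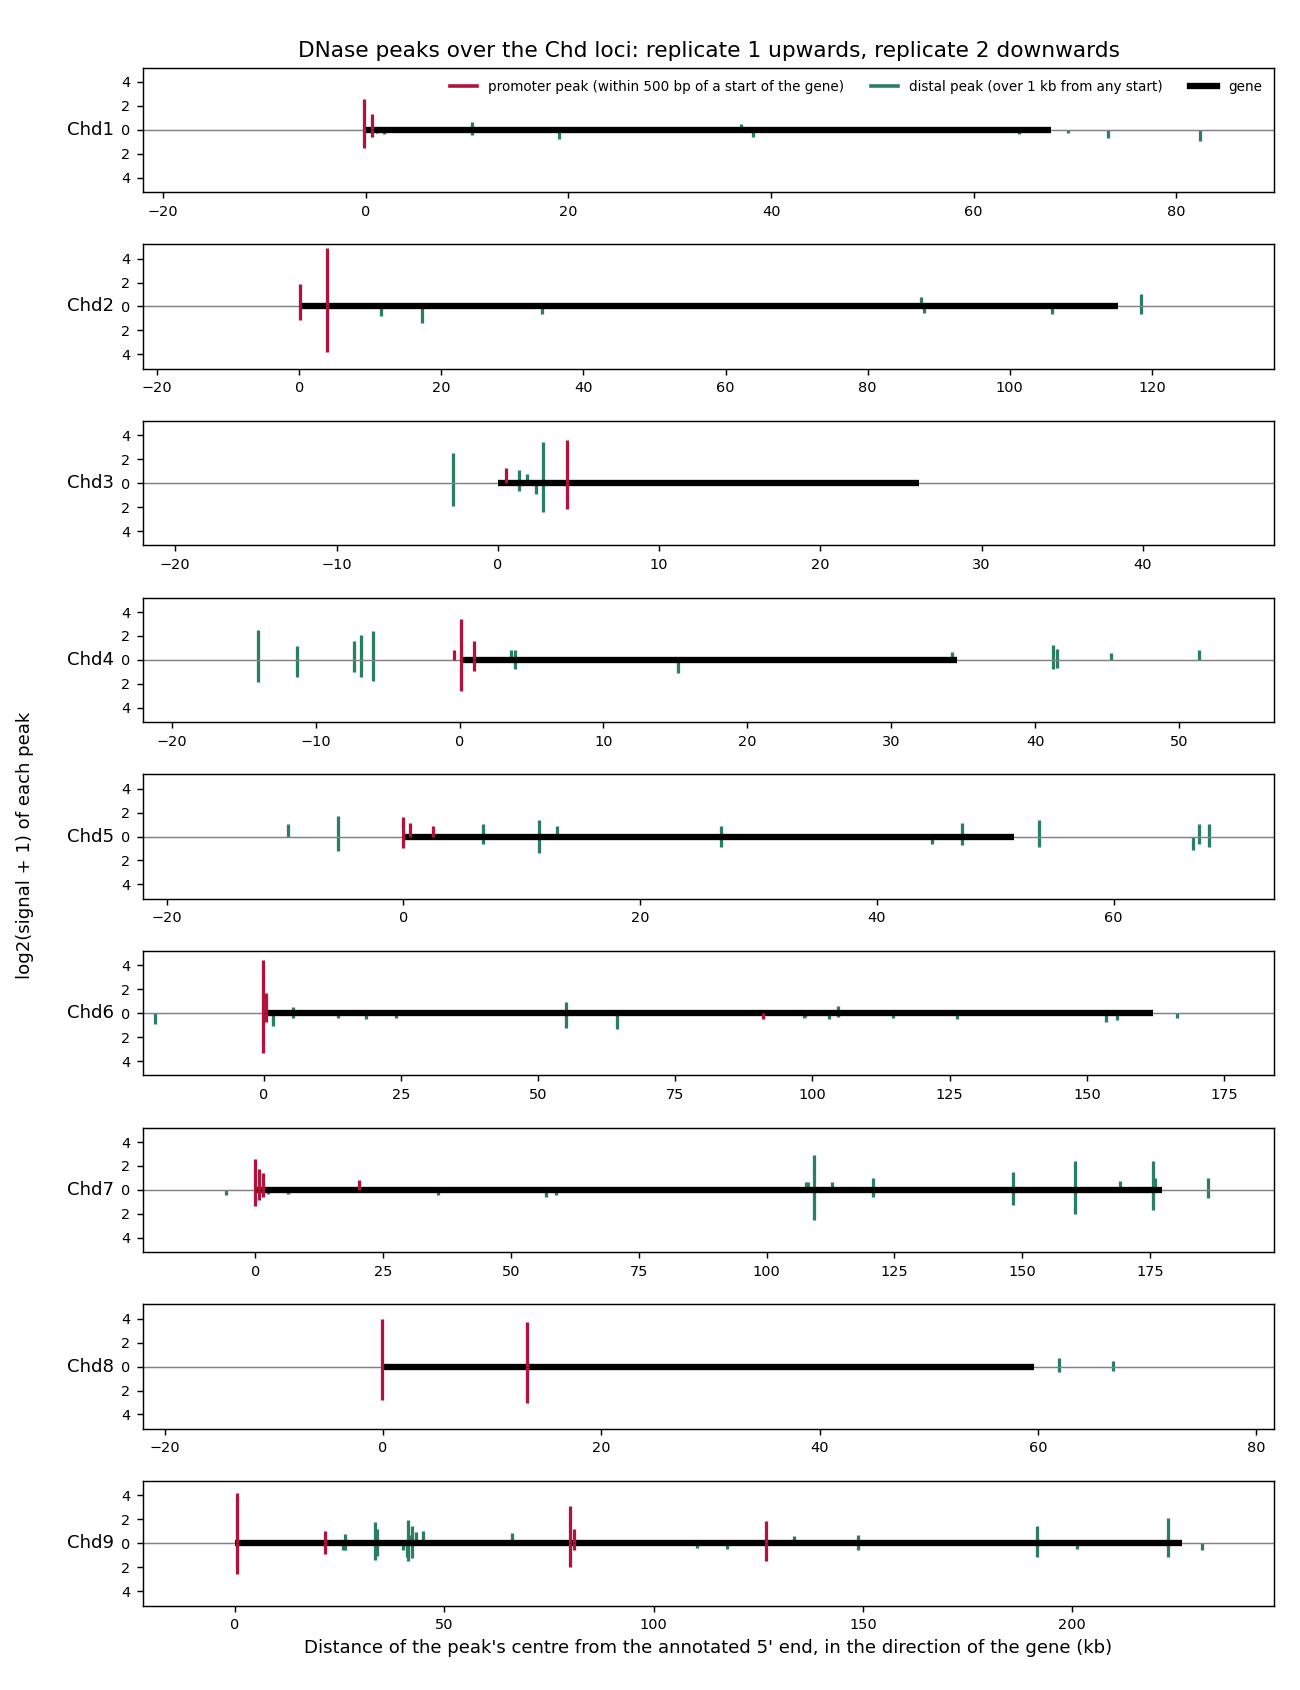
Every promoter peak (red) and distal peak (green) over the 9 Chd loci, placed by its distance in kb from the annotated 5′ end in the direction of the gene (x axis, its own scale in each panel), with a height of log2(signal + 1) in replicate 1 upwards and replicate 2 downwards. The black bar is the gene; the tallest line of Chd2 stands inside the gene, Chd8 has a pair of tall lines, Chd4 has a group of 5 upstream, and Chd7 has most of its distal signal in the far end of the gene.

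Distal peaks were spread unevenly over the members. Over all 9 loci there were 60 distal peaks in replicate 1 and 87 in replicate 2, a median of 4.88 and 6.05 per 100 kb of locus, against 2.50 and 4.37 over all protein-coding genes. The members are long, and in the longest decile of genes, which holds Chd2, Chd6, Chd7 and Chd9, the median was 3.21 and 6.02. Of the members' distal peaks 66.7% in replicate 1 and 50.6% in replicate 2 overlapped a peak of the other library, against 68.9% and 42.7% of all distal peaks. Merged over both libraries they made 103 sites, of which 40 were found in both, 19 in replicate 1 only and 44 in replicate 2 only. Of the sites, 76 lay inside the genes, 10 in the upstream and 17 in the downstream flanks, and 12 lay over coding exons.

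**Figure D3:**
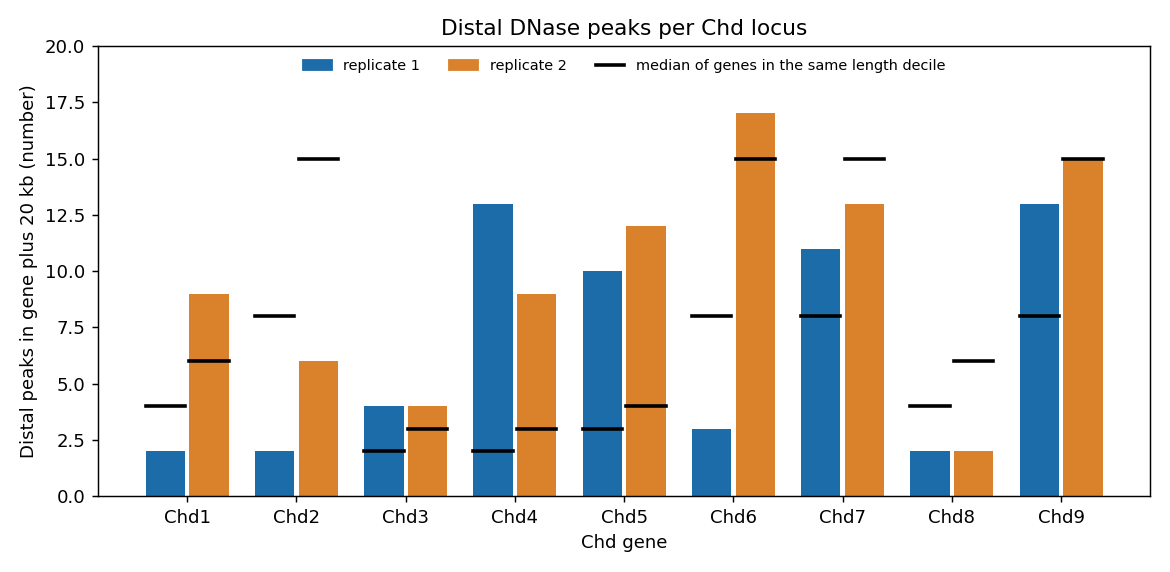
Number of distal peaks in each Chd gene plus 20 kb on either side (y axis), with replicate 1 in blue and replicate 2 in orange. Black lines give the median of the protein-coding genes in the same decile of gene length; Chd3, Chd4 and Chd5 stand above their lines in both libraries, Chd2 and Chd8 below them in both.

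With their flanks counted, Chd4 and Chd5 were rich in distal peaks for their length. Chd2 and Chd8 fell below the median of their length decile in both libraries. Chd4 had 13 in replicate 1 and 9 in replicate 2, against a median of 2 and 3 in genes of its length decile (percentiles 98.4 and 96.2). Only 3 and 2 of the Chd4 peaks lay inside the gene, and the rest lay in its flanks. The 4 downstream sites of Chd4 lay inside the neighbouring genes Nop2 and Iffo1. Chd5 had 10 and 12, against a median of 3 and 4 (percentiles 95.3 and 98.1), with 5 and 6 of them inside the gene. The flank sites of Chd5 all lay inside neighbouring genes, the 2 upstream in Rpl22 and the 4 downstream in Kcnab2. Chd2 had 2 and 6, against a median of 8 and 15 (percentiles 12.5 and 13.2). Chd8 had 2 in each library, none of them inside the gene, against a median of 4 and 6 (percentiles 34.9 and 11.3). No distal peak can lie within 1 kb of a start, and the deciles were not matched for the number of starts. Chd2 has 17 distinct starts and Chd8 has 16, the most of the family.

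Chd3 had 4 in each library, against a median of 2 and 3. Among the others, Chd6 had 3 distal peaks in replicate 1 and 17 in replicate 2, the widest gap between libraries, and 14 of its 17 sites were found in replicate 2 only. Chd1 had 2 and 9. Chd7 had 11 and 13, and Chd9 had 13 and 15. Replicate 2 has the longer peak list. With its list cut to the strongest 115699 peaks, the number in replicate 1, it had 9 distal peaks at Chd6, 5 at Chd1 and 70 over all members, so the gap at Chd6 became narrower but stayed.

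At Chd4, 5 of the 13 sites lay in the upstream flank, and all 5 were found in both libraries. The strongest, at chr6:125081881-125082120, had 4.71 signal units in replicate 1 and 2.56 in replicate 2 (percentiles 97.1 and 98.5 among distal peaks). It lies 13981 bp before Chd4, inside the neighbouring gene Lpar5, which encodes a lysophosphatidic acid receptor. The site at 125089821 to 125090060, between both genes, had 4.37 and 2.49 (percentiles 96.6 and 98.4). Which gene a distal site acts on cannot be told from these files.

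The strongest distal site of Chd3 lay at chr11:69366461-69366760, with 9.60 signal units in replicate 1 and 4.29 in replicate 2 (percentiles 99.6 and 99.8). It is distal by the GENCODE models, but RefSeq places the start of 2 predicted Chd3 transcripts at 69366460, 1 bp from its edge. Of the 103 distal sites, 5 lay within 500 bp of a RefSeq start of their own gene, 4 of them in Chd3 and 1 in Chd5, and all of these starts belong to predicted transcripts. A further Chd3 site, upstream at chr11:69372101-69372320, had 4.62 and 2.85 (percentiles 97.0 and 99.0) and no such start nearby. At Chd3 the 3 strongest open sites found in both libraries therefore all lay away from the annotated 5′ end.

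Merged over both libraries, Chd7 had most of its distal sites far from its 5′ end. Over 100 kb from the 5′ end there were 10 Chd7 sites inside the gene, all found in replicate 1. A further 6 Chd7 sites, all nearer the 5′ end, were found in replicate 2 only. The far sites were therefore not the majority in replicate 2. Of the 10 far sites, 5 were found in both libraries. Those included 3 over coding exons, at 8838541 to 8838760 (signals 1.85 and 1.36), at 8850541 to 8850800 (4.27 and 3.03) and at 8865881 to 8866120 (4.32 and 2.16), the last near the 3′ end.

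In each of the remaining members the strongest shared distal site, taken by the smaller of its percentiles in both libraries, was weaker than that of Chd3. In Chd9 it lay in an intron at chr8:90869561-90869860, with 2.95 in replicate 1 and 1.82 in replicate 2 (percentiles 93.1 and 95.6), among 11 sites that fell between 25 and 50 kb into the gene, 5 of them in both libraries. In replicate 1 alone, a Chd9 site over a coding exon at 91051141 to 91051340 was stronger (3.42 and 1.22). In Chd5 it lay upstream at chr4:152333041-152333240, inside the ribosomal protein gene Rpl22, with 2.26 and 1.26 (percentiles 89.6 and 89.8). In replicate 2 alone, a Chd5 intron site at 152349881 to 152350380 was stronger (1.55 and 1.58). In Chd6 it lay in an intron at chr2:161053861-161054060, with 0.957 and 1.30 (percentiles 66.7 and 90.4). The sites of Chd2 (1.03 and 0.554), Chd8 (0.638 and 0.392) and Chd1 (0.562 and 0.387) were of middling or low rank. Those of Chd2 and Chd8 lay in the downstream flank, at chr7:73423326-73423526 over Gm44645 and at chr14:52195781-52195912 over the histone chaperone gene Supt16, and that of Chd1 in an intron at chr17:15715321-15715520.

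**Figure D4:**
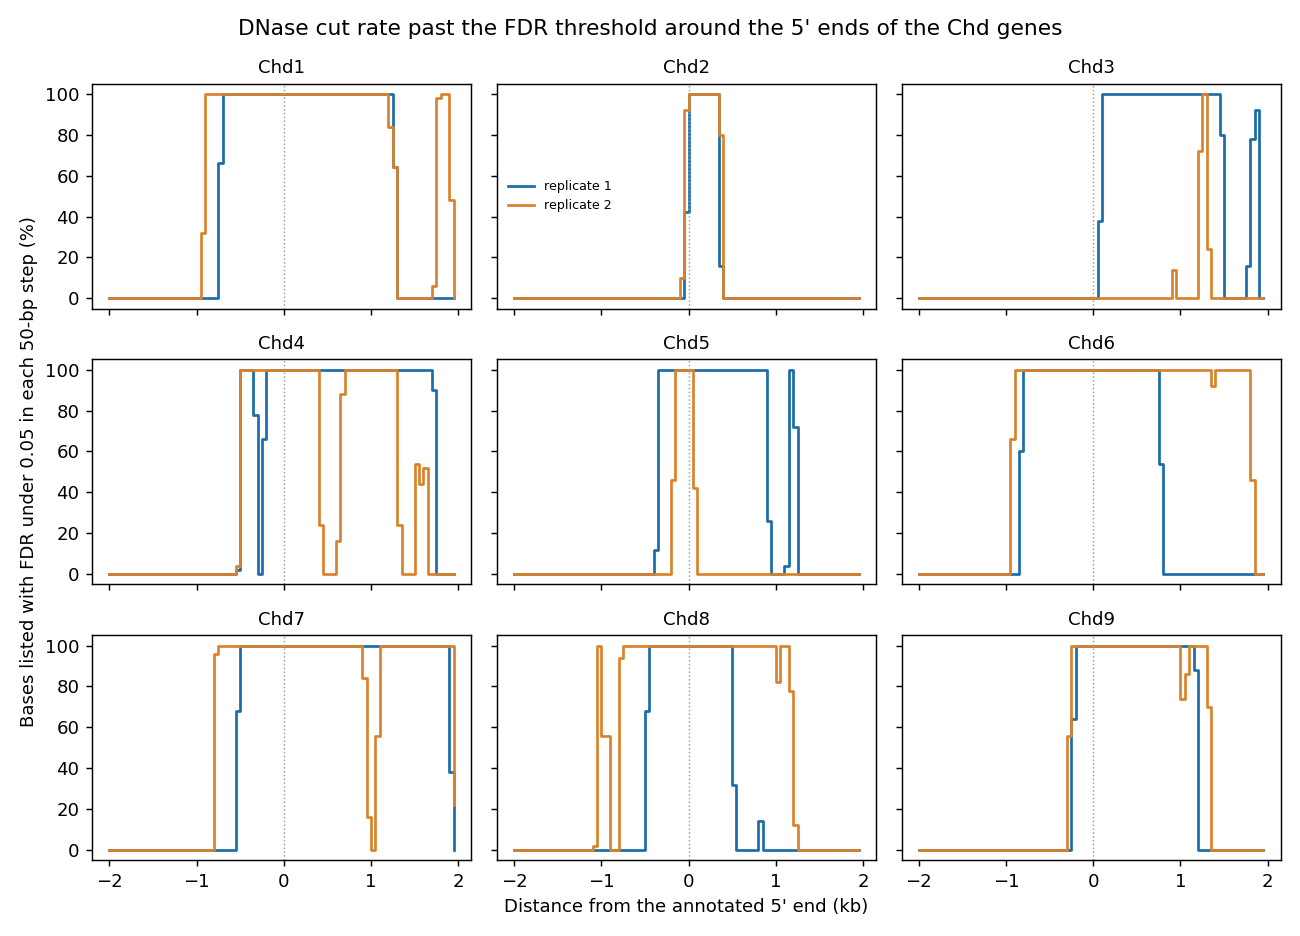
Percentage of bases that the deposited files list with a false discovery rate under 0.05 for the cut rate, in steps of 50 bp over the 2 kb before and after each annotated 5′ end (x axis, kb), for replicate 1 in blue and replicate 2 in orange. Chd1, Chd6, Chd7 and Chd8 are covered on both sides of the 5′ end in both libraries, Chd2 almost only downstream, and Chd3 downstream of the 5′ end in replicate 1, with the 5′ end itself empty in both.

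The deposited per-base files list where the cut rate passed the authors' threshold. Within 250 bp of the 5′ end, every base was listed with a false discovery rate under 0.05 in both libraries for Chd1, Chd6, Chd7 and Chd8, and at least 96.4% of bases for Chd4 and Chd9. Chd2 had 54.3% in replicate 1 and 60.3% in replicate 2, nearly all of it downstream: in the 500 bp upstream 4.20% and 10.2% of bases were listed, and in the 500 bp downstream 71.4% and 77.8%. Chd3 had 33.9% and 0%. Chd5 had 100% and 48.7%. The members' median was 100% in both libraries, against 74.1% and 56.6% for all protein-coding genes, of which 36.4% and 32.6% had every base listed.

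Footprints were present in the strongest promoter peak of every member. Their mean number was 6.22 per peak in each library, with a median of 5 in replicate 1 and 6 in replicate 2, against 5 and 4 in the strongest promoter peaks of all genes. The number was not ordered by signal. Chd7, a moderate promoter with a wide peak, had 11 and 9, while Chd2, the strongest, had 3 and 6. Per 100 bp of peak the members' median was 2.20 and 2.14, against 2.00 and 1.82.

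Consensus words, 16 in all, were searched on both strands, and a match was set against the footprints extended by 5 bp. A match describes letters in the reference sequence and does not show that a factor binds. In the Chd2 peak printed above, the CREB/ATF word TGACGTCA at 73537891 to 73537898 and the Sp/Klf word CCCCGCCC at 73537801 to 73537808 lay under footprints of both libraries. They were found under footprints of both libraries in 3.06% and 20.4% of the 13836 strongest promoter peaks, over the central 200 bp. Chd7 also holds TGACGTCA, 70 bp before its 5′ end, but under no footprint in either library.

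At Chd1, 4 overlapping copies of the Sp/Klf word began 102, 97, 92 and 87 bp before the 5′ end, all under footprints of both libraries; they share letters and are not separate sites. Chd4 held the same word 31 bp after its 5′ end, on the opposite strand, beside the NFY word CCAAT and the RFX word GTTGCC, all under footprints of both. In the 300 bp from 250 before to 50 after the 5′ end, the Sp/Klf word lay under footprints of both libraries in 11.4% of all protein-coding genes and CCAAT in 6.22%. Chd6 had CCAAT under footprints of both libraries at 62 and 176 bp before its 5′ end, in the sequence printed above. At 176 bp only the last letter is printed as a capital, so that match rests on the 5 bp extension of the footprints. Chd8 had the ETS word CCGGAAG 31 bp after its 5′ end, which 3.20% of all genes show in that way.

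In Chd9 and Chd3, words under footprints lay outside that window. The Chd9 peak held the CTCF word CCACTAGGTGG at 90828804 to 90828814, under footprints of both libraries, as did 2.89% of the 13836 peaks. The Chd3 promoter peak held the E-box CAGCTG at 69365130 to 69365135 in the same way, as did 2.16%. In the weak Chd5 promoter GTTGCC, 53 bp before the 5′ end, lay under a footprint of replicate 1 only. In all, 4 of 9 members had at least one of the 16 words under footprints of both libraries in the 5′ end window, against 25.6% of all genes, and 5 of 9 in the central 200 bp of the strongest promoter peak, against 49.03%.

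Among the 40 distal sites found in both libraries, the central 200 bp held the E-box CAGCTG in 12 (30%) and CAGATG in 14 (35%). The shares of all 54709 such sites were 23.0% and 27.4%. The CTCF word was in 7 (17.5%, against 18.2%) and CCAAT in 7 (17.5%, against 23.6%). GTTGCC was in 2 (5%, against 10.8%) and the NFI word in 2 (5%, against 3.30%). Each other word was in at most 3 sites. Sites with a word under footprints of both libraries numbered 3 for CAGCTG, 3 for CAGATG, 3 for the CTCF word, and 2 each for the NFI word and for GTTGCC. Over all 54709 sites the shares were 3.96% for CAGCTG, 6.28% for CAGATG, 11.6% for the CTCF word, 1.75% for the NFI word and 2.10% for GTTGCC.

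The genes whose products work with the CHD motors were open as well, and so were those of other remodeller motors. All 12 NuRD partners, all 12 other remodeller ATPases and all 4 partners of Chd4 in the ChAHP complex had an open promoter in each library, against the 63.2% of all genes given above. Their median percentiles were 85.4, 85.4 and 92.0, with 89.3 for the Chd genes and 77.2 for all genes with a peak. Among NuRD partners the highest was Gatad2a (24.0 in replicate 1 and 10.4 in replicate 2), a scaffold subunit, and the lowest Mta1 (1.60 and 0.513), also a scaffold. Among the remodellers the highest was Smarca4 (21.1 and 9.20), the BRG1 motor of the SWI/SNF complex, and the lowest Smarca1 (0.942 and 0.317), the SNF2L motor of ISWI complexes. Among ChAHP partners the highest was the heterochromatin protein gene Cbx3 (20.2 and 7.34) and the lowest its relative Cbx1 (6.90 and 3.42). By mean percentile, Smarca1 (19.7), Mta1 (37.6) and Mta3 (48.1) lay below the weakest Chd gene, Chd5 (52.0).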

How the data were processed

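DNase-seq was measured in 2 libraries of 1 group. Per the labels the files were derived by the authors from each library's own alignment on mm10; no aligner, peak caller or footprint caller is given in the sources used here. The peak lists deposited by the authors give a signal per peak, and their score, p-value and q-value columns hold placeholders. The authors' FDR (q-value) files list runs of bases with an FDR under 0.05. The deposited footprints carry the same score in every row, so only their positions were used. The depth in reads is unknown, so no counting interval is given.

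Peaks were joined to GENCODE M21 starts (chromosomes 1 to 19, X and Y of GRCm38.p6) with Python 3.11.15, numpy 2.4.6, pandas 2.3.3 and pysam 0.24.0. A peak within 500 bp of a start counted for every gene with such a start. Peaks between 500 bp and 1 kb from a start fell in neither class. A percentile is the share of promoter (or distal) peaks of that library with a signal at or below the value. An overlap of 1 bp or more made a peak shared. The 16 words searched include TGACGTCA for CREB/ATF proteins and CCCCGCCC for Sp/Klf proteins. For NFY the word was CCAAT, and ETS proteins were searched by CCGGAAG. The 2 E-boxes and the RFX word are spelled in the results. For YY1 the word was AANATGGC. TGANTCA stood for AP-1 and the E2F word was TTCCCGC. The TATA box was searched as TATAAA, and longer words stood for CTCF, NRF1, NFI, Zbtb33 and Thap11/Zfp143. RefSeq starts came from the annotation of the same assembly. The functions were checked on simulated data. All 9 members are named, with the strongest shared distal site (by the smaller of its percentiles in both libraries) of each except Chd7. From each partner or remodeller list the highest and lowest gene are named. Of Chd7, 1 site, and 1 marker result are not reported here. The members and lists were chosen with earlier results of these data known. Left-out libraries and 51 alternatives were tried.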

Additional observations from a re-analysis of the deposited data

How the results depend on the processing

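The count of members with an open promoter in each library stayed 9 under all alternatives tried except the 5′ end alone, with 8. The members' median percentile (89.3) was 86.3 with the shorter lists, 87.1 and 91.3 with windows of 250 and 1000 bp, 80.0 at the 5′ end alone (Chd3 left out, with no peak there in replicate 2), 75.9 when ranked among genes' strongest peaks in place of all promoter peaks, 93.5 by signal times width, and 90.6 to 90.8 leaving out either library. The mean number of distal peaks (73.5) was 37.5 with the shorter lists, 122.5 with 50 kb on either side and 65.0 with lists of equal size. Their shared percentage (58.6) was 46.5 when the overlap had to cover 50% of each peak. Footprints per strongest peak (6.22) were 5.83 when wholly inside, 6.17 with the shorter lists and 3.92 over every promoter peak. The bases listed around 5′ ends (82.8%) were 75.9% at 500 bp on either side. Partner and remodeller genes with a promoter peak in both (100%) were 92.9% with the shorter lists, which lack peaks in both for Mta1 and Smarca1. Moves of over 1.5 times in single members were Chd3 from a window of 250 bp (57.6, against 87.2), Chd2 from the 5′ end alone (59.1, against 99.9), and, when ranked among genes' strongest peaks, Chd1 (41.7, against 70.7), Chd7 (39.6, against 69.1) and Chd5 (21.3, against 52.0). For single members, 21 of the values recomputed moved by less than the spread between the libraries and 32 by more; the causes were not tested. No paired analysis was possible because there is a single group. The unstated scaling of the signal limits every comparison of strength to ranks within a library, and 2 libraries limit any statement of spread.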
